A study of Mus musculus with 4 samples.

Results

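This report describes 9 human genes that mark the myeloid lineage, CST3, TYROBP, FCER1G, LST1, AIF1, SPI1, CSF1R, CD68 and CLEC10A, out of 33538 human genes counted. The genes were taken by name, and all 9 had counts. They were followed across monocyte-, basophil- or mast-, eosinophil-, dendritic-, NK- and T cell-like human cells, in blood and in injured spinal cord, with attention to FCER1G and TYROBP in T cells. Single-cell RNA sequencing had been performed on human leukocytes of huNSG-SGM3 mice, an immunodeficient strain with the Prkdcscid and IL2rgtm1Wjl alleles on the NOD background. Its transgene Tg(CMV-IL3,CSF2,KITLG)1Eav drives these human cytokines from a CMV promoter, and the mice were engrafted with human CD34+ umbilical cord stem cells. The age label was 15 weeks for all groups. Human CD45+ cells were sorted from the blood of naïve mice without surgery, of sham mice with a T9 laminectomy only, and of mice with a contusive T9 spinal cord injury (SCI), and from the injured cord of SCI mice, the operated groups at 7 days post-surgery. Every group shared the transgenes and the engraftment, and the animals keep their own mouse myeloid cells.

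Each of the 4 groups was 1 library, made from cells pooled over animals, so no test between groups was possible and no p-value is given. Intervals are exact 95% intervals that cover counting error only, and pool, host sex (male hosts for naïve and sham, both sexes for SCI) and condition cannot be told apart. Of the barcodes with over 50% human molecules, 6331, 4660, 5940 and 118 were kept in naïve blood, sham blood, SCI blood and SCI cord, with medians of 3699, 5234, 4656.5 and 9331 unique molecular identifiers (UMIs, each 1 counted RNA molecule). Any 2 libraries shared at most 10 of their kept barcodes. Levels are given as counts per 1000000 (CPM) of the summed UMIs of a class, over human genes other than ribosomal and mitochondrial ones; 3′ UMI counts hold 1 end per molecule and are not scaled by gene length.

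FCER1G and TYROBP are small transmembrane adaptors with an immunoreceptor tyrosine-based activation motif (ITAM). They have almost no extracellular part and carry the signal of receptors that lack a signalling tail: FCER1G of the IgE receptor and other Fc receptors, and TYROBP of many activating receptors of NK and myeloid cells such as TREM1 and TREM2. T cell receptors instead signal through the CD3 chains and CD247. Of the other genes, CST3 encodes cystatin C, a secreted inhibitor of cysteine cathepsins, and CD68 a lysosomal glycoprotein of phagocytes. SPI1 encodes PU.1, a transcription factor of the myeloid and B lineages, and CSF1R the receptor for CSF1 and IL34. LST1 and AIF1 (IBA1, an actin-binding protein used to stain microglia and macrophages) are encoded in the MHC class III region, and CLEC10A is a C-type lectin of conventional dendritic cells and some monocytes.

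Classes were named from marker genes that exclude all 9 members. Monocyte-like cells numbered 141, 96, 18 and 7 (naïve blood, sham blood, SCI blood and SCI cord, the order used throughout), basophil or mast-like cells 95, 118, 134 and 15, and T-like cells 4224, 3694, 4625 and 67. Markers that had served to name the clusters were high in them, which is no separate check of the names. S100A9 stood at 29410 to 43155 CPM in monocyte-like cells. FCER1A and MS4A2, the other chains of the IgE receptor, stood at 1460 to 2375 and 3272 to 4152 CPM in basophil or mast-like cells. The eosinophil-like cluster was small (3, 6, 6 and 13 cells) and weakly named: CLC stood at 6526 to 48379 CPM, but EPX, the eosinophil peroxidase, was at 0 UMIs in cord. Its leading genes also included CLU, CD24, ITGA2B and CAMP, the last a neutrophil marker. The paper named its myeloid clusters neutrophils and basophils, and lists no monocyte or eosinophil cluster. No cluster of NK or dendritic cells formed. NK cells were therefore taken by gate from the cytotoxic T-like cluster (at least 3 UMIs of NK markers and at most 1 CD3 or TRAC UMI), which gave 8, 9, 21 and 0 barcodes. A gate for dendritic markers gave 1, 2, 0 and 2 barcodes.

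**Figure D1:**
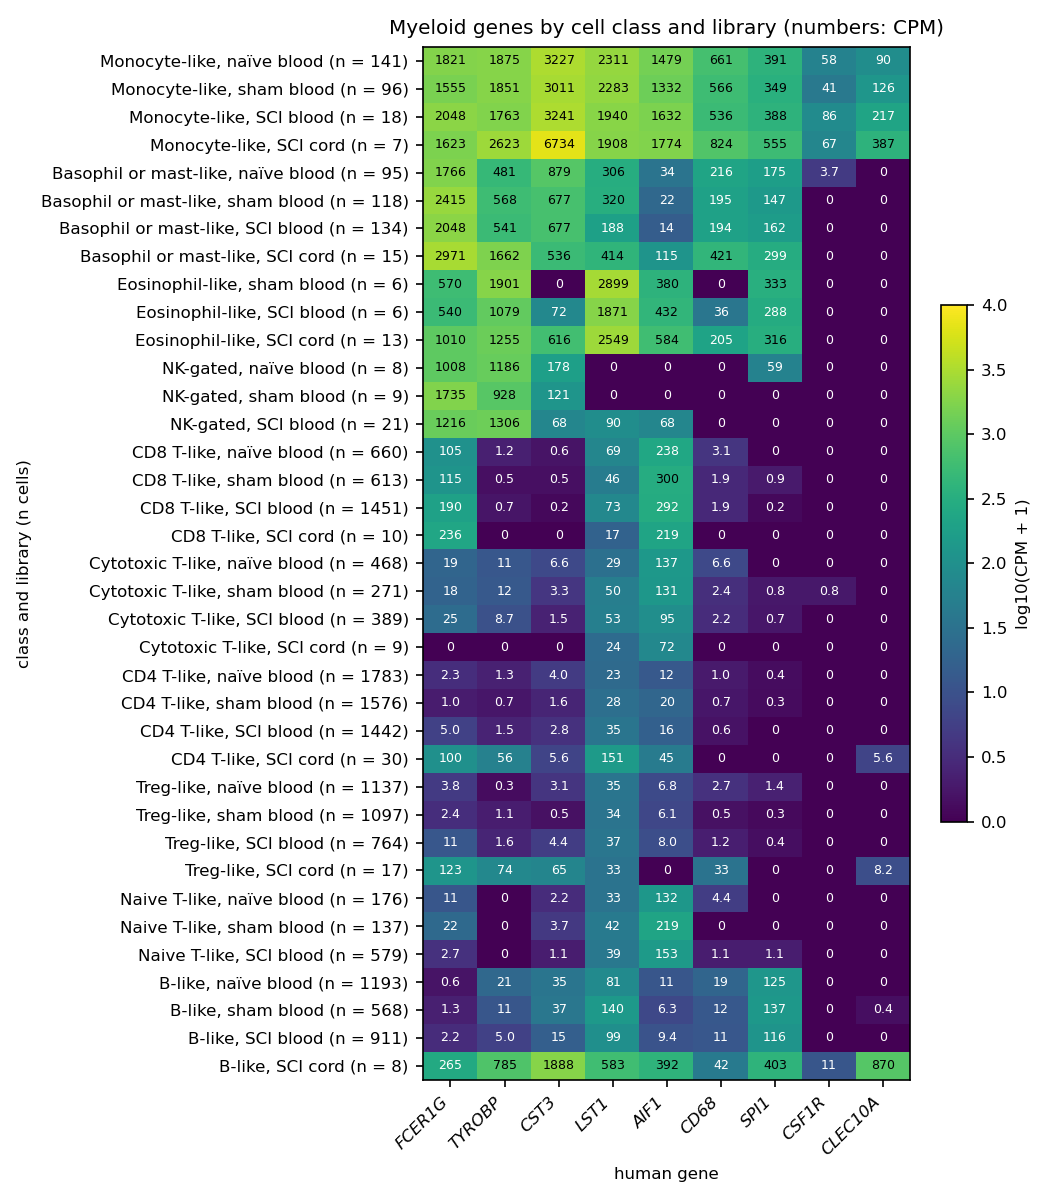
Level of each of the 9 genes (columns) in each cell class and library (rows, with the number of cells), as CPM in figures and log10(CPM + 1) in colour. FCER1G is high in monocyte-, basophil- and NK-like rows and between 105 and 236 CPM in the CD8 T-like rows, where TYROBP and CST3 are near 0, while AIF1 is seen in both monocyte- and T-like rows.

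In monocyte-like cells both adaptors were high and nearly equal. FCER1G stood at 1821, 1555, 2048 and 1623 CPM and TYROBP at 1875, 1851, 1763 and 2623 CPM in the 4 libraries. Molecules of both were found together in 139 of 141, 96 of 96, 18 of 18 and 7 of 7 cells. FCER1G made up 49.3%, 45.7% and 53.7% of the molecules of the pair in blood and 38.2% (34.0 to 42.6) in cord, so that the cord value lay below the 3 blood values.

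In basophil or mast-like cells FCER1G was as high as in monocyte-like cells, whereas TYROBP was lower. FCER1G stood at 1766, 2415, 2048 and 2971 CPM, and TYROBP at 481, 568 and 541 CPM in blood and 1662 CPM (1448 to 1898) in cord. FCER1G accordingly took 78.6%, 81.0% and 79.1% of the pair in blood and 64.1% (60.2 to 68.0) in cord. Both were found in 57 of 95, 97 of 118 and 108 of 134 blood cells and in 15 of 15 cord cells. These counts are at full depth, which differed, with medians of 3119, 4850.5, 3984.5 and 9273 UMIs in this class.

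NK-gated cells had both adaptors with few of the other molecules. FCER1G stood at 1008, 1735 and 1216 CPM in the blood libraries (17, 43 and 54 UMIs), and TYROBP at 1186, 928 and 1306 CPM (20, 23 and 58 UMIs). Cells with both genes were 6 of 8, 8 of 9 and 17 of 21. CD68, CSF1R and CLEC10A had 0 UMIs in these cells, and CST3 had 3 UMIs in each library. Of the 2 members tested, the adaptors, 0 changed by 2-fold for sham over naïve, SCI over naïve and SCI over sham, where 11.7%, 11.1% and 11.1% of the genes tested did. KLRF1, an NK receptor gene, was present at 119, 565 and 360 CPM and CD247 at 415, 888 and 1013 CPM, lowest in naïve blood for both. The naïve NK-gated barcodes also held CD79A and MS4A1, which are B cell genes, at 474 CPM each.

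T-like cells separated the adaptors. In CD8 T-like cells FCER1G was at 105 (89.7 to 122), 115 (101 to 130), 190.5 (178 to 204) and 236 CPM (129 to 396), whereas TYROBP had 2, 1, 3 and 0 UMIs in all. FCER1G molecules were in 110 of 660, 135 of 613, 413 of 1451 and 3 of 10 CD8 T-like cells, and 2 of these cells, both in SCI blood, also held a TYROBP molecule. FCER1G thus made up 98.8% (95.9 to 99.9), 99.6% (97.75 to 99.99) and 99.6% (98.9 to 99.9) of the pair in the 3 blood libraries. Its share in monocyte-like cells of the same libraries was far lower. Basophil or mast-like cells were nearer, at 78.6%, 81.0% and 79.1%.

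**Figure D2:**
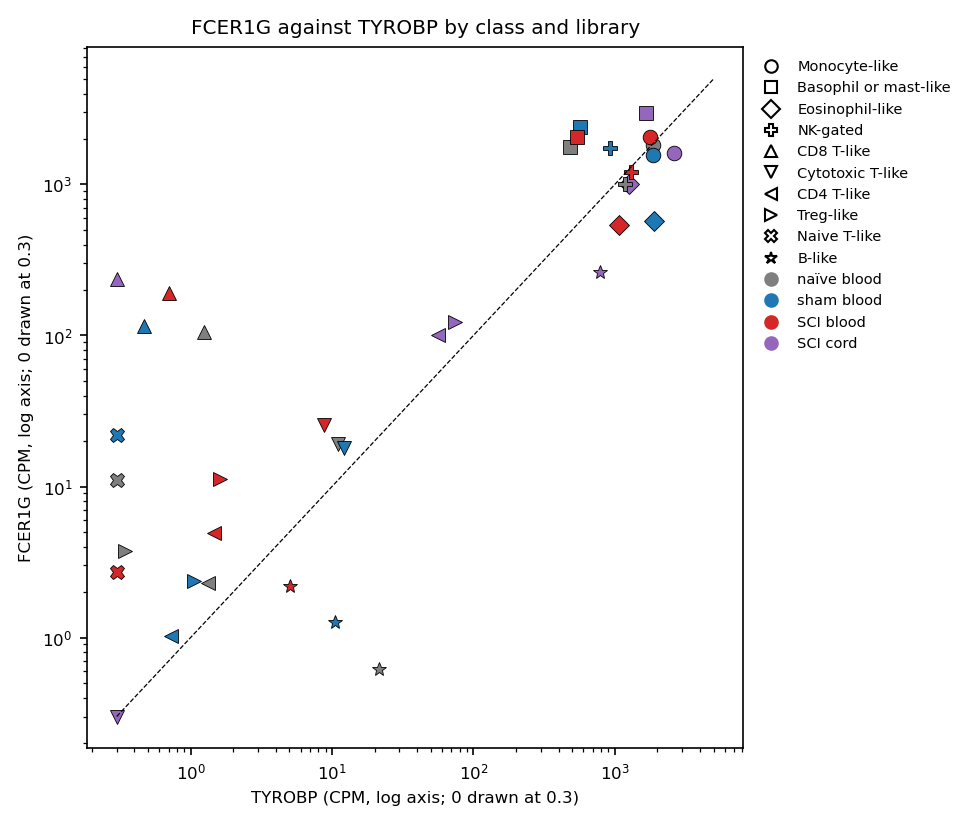
FCER1G against TYROBP, each as CPM on a log axis with 0 drawn at 0.3, one point per class and library, with equal levels on the dashed line. Monocyte- and NK-like points lie on both sides of the line, from 38.2% of the pair as FCER1G in cord monocyte-like to 65.2% in sham NK-gated cells, basophil or mast-like points lie above it, at 64.1% to 81.0%, and CD8 T-like points stand at 105 to 236 CPM of FCER1G with TYROBP at 1.23 CPM or less.

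To compare libraries of unequal depth, each cell was thinned to 1000 human UMIs, and no cell was too shallow for this. After thinning, 6.06% (4.36 to 8.16), 6.53% (4.70 to 8.78) and 10.3% (8.82 to 12.02) of the CD8 T-like cells in naïve, sham and SCI blood held an FCER1G UMI, against 16.7%, 22.02% and 28.5% before thinning. SCI blood was highest, and its interval did not overlap those of naïve and sham blood, though for sham blood only narrowly (8.82 against 8.78). The thinning was a single random draw, and cells of a library are not replicates of a condition. B-like cells of the same libraries, which should lack FCER1G, held it in 0 of 1193, 0 of 568 and 0 of 911 thinned cells, which allows shares of up to 0.251%, 0.528% and 0.329%. Their unthinned shares were 0.168%, 0.528% and 0.329%. TYROBP was found in 0 of 660, 0 of 613 and 0 of 1451 thinned CD8 T-like cells, which allows up to 0.455%, 0.489% and 0.207%.

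Other T-like clusters held little of either adaptor in blood. Cytotoxic T-like cells had FCER1G at 19.1, 17.9 and 25.4 CPM and TYROBP at 11, 12.2 and 8.71 CPM, and 5 of 13, 4 of 9 and 2 of 18 cells with either gene held both. CD4 T-like cells had FCER1G at 2.29, 1.02 and 4.96 CPM, and Treg-like cells at 3.76, 2.38 and 11.3 CPM. After thinning, FCER1G was found in 0.224%, 0.0635% and 0.347% of CD4 T-like cells and in 0.528%, 0 and 0.654% of Treg-like cells, within the shares that 0 B-like cells allow or with intervals that overlap them. Naïve T-like cells had 5, 12 and 5 FCER1G UMIs (10.96, 21.9 and 2.70 CPM) and 0 TYROBP UMIs in naïve, sham and SCI blood. By CPM of FCER1G, CD8 T-like cells were highest in each blood library, followed by cytotoxic T-like cells in naïve and SCI blood and by naïve T-like cells in sham blood, where the intervals of these 2 overlapped. The thinned shares of Treg-like and CD4 T-like cells overlapped in their intervals in each library.

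**Figure D3:**
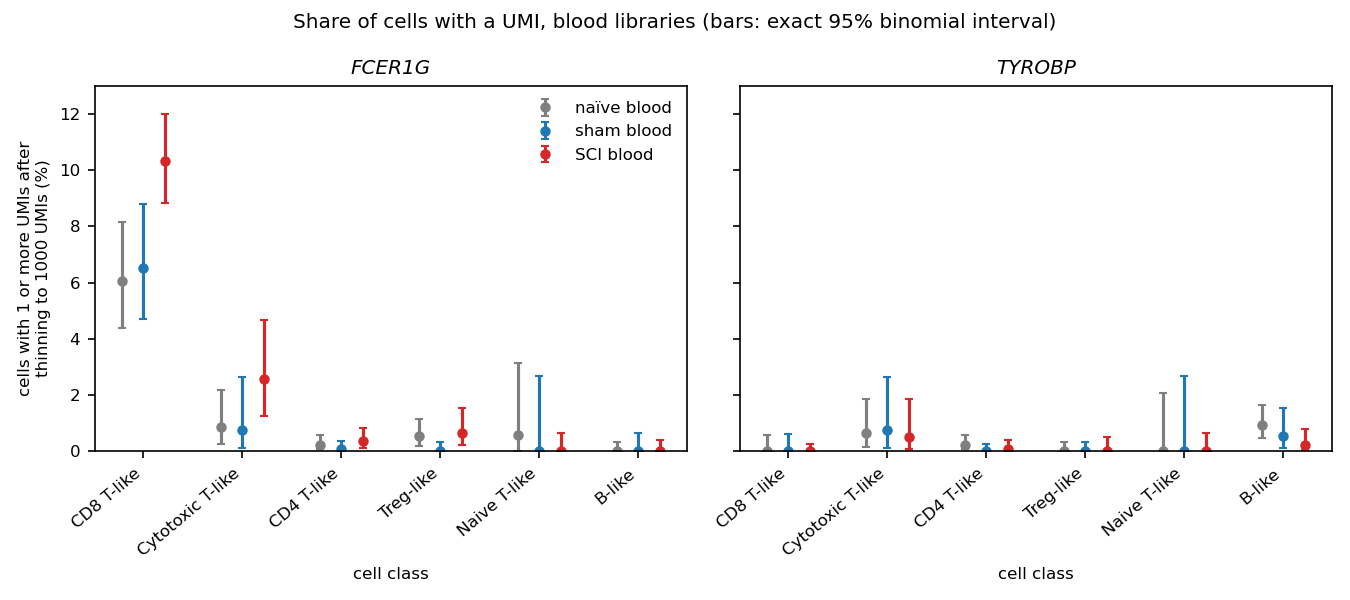
Share of cells with at least 1 UMI of FCER1G and of TYROBP after thinning to 1000 UMIs, by cell class (x axis) in the 3 blood libraries; bars are exact 95% binomial intervals. FCER1G in CD8 T-like cells stands at 6.06%, 6.53% and 10.3%, above B-like cells, whereas no thinned CD8 T-like cell of blood held TYROBP.

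Per molecule, FCER1G of CD8 T-like cells was 0.86 higher (log2; 0.62 to 1.11) in SCI than in naïve blood and 0.73 higher (0.52 to 0.94) in SCI than in sham blood, and sham differed from naïve blood by 0.13 (−0.16 to 0.42). A change of 2-fold (a log2 ratio of 1 or more in either direction, for genes whose UMIs reached 20 when the compared libraries were added) was used as the limit for calling a gene. By this limit 0 of the 3 members tested (FCER1G, LST1 and AIF1) were called in each of the 3 comparisons of CD8 T-like blood cells, where 3.16%, 2.42% and 2.18% of all genes tested were called for SCI over naïve, SCI over sham and sham over naïve. Genes with a ratio at least as high as that of FCER1G were 2.27% of 10464 for SCI over naïve and 2.97% of 10560 for SCI over sham. Both comparisons share the SCI library. In cord the 10 CD8 T-like cells had 14 FCER1G UMIs, a log2 ratio of 0.36 (−0.57 to 1.06) over SCI blood. A single cell held 11 of the 14, and the 5 cord cells with no monocyte or B cell marker UMI held 1 (42.4 CPM). Of 3 members tested 1 was called, LST1, lower (−1.53; −7.42 to 0.38) from 1 cord UMI, where 29.3% of genes were called and 10.4% were called lower.

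At full depth, which differs between the libraries, the per-cell counts were as follows. Cells with 3 or more FCER1G UMIs were 15 of 660 (2.27%), 28 of 613 (4.57%) and 108 of 1451 (7.44%), cells with 2 UMIs 3.79%, 6.20% and 5.86%, and cells with 1 UMI 10.6%, 11.3% and 15.2%. SCI blood was highest for 1 and for 3 or more UMIs, and sham blood for 2. The highest count in a cell was 4, 5 and 13 UMIs in naïve, sham and SCI blood and 11 UMIs in cord. Cells with FCER1G had about the depth of those without it, with medians of 4555 and 4362.5 UMIs in SCI blood. Monocyte RNA was scarce in the same cells: S100A9 had 12, 22 and 39 UMIs and LYZ 9, 7 and 6 UMIs in all CD8 T-like cells, whereas monocyte-like cells held 31801, 29339 and 5155 UMIs of S100A9. Among CD8 T-like cells with no UMI of 7 monocyte and B cell markers, 6.52% (4.53 to 9.04), 6.34% (4.18 to 9.15) and 9.77% (7.99 to 11.8) held FCER1G after thinning, and the interval of SCI blood then overlapped those of naïve and sham blood.

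**Figure D4:**
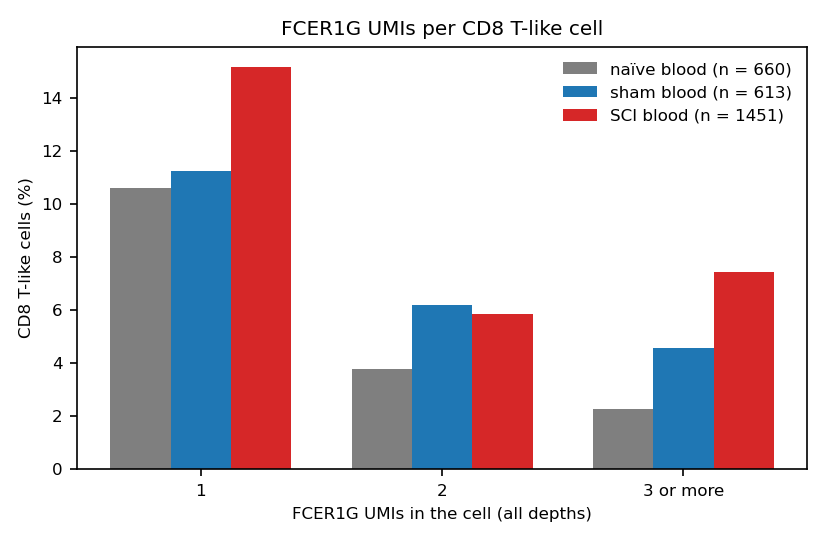
Percent of CD8 T-like cells (y axis) with 1, 2 or 3 or more FCER1G UMIs (x axis) at full depth in the 3 blood libraries. SCI blood is highest for 1 UMI (15.2%) and for 3 or more (7.44%, against 2.27% and 4.57% in naïve and sham blood), and sham blood is highest for 2 UMIs (6.20%, against 5.86% in SCI blood).

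CD8 T-like cells of SCI blood were also split by whether an FCER1G UMI was left after thinning. At full depth 413 of the 1451 cells held FCER1G, so the cells without it include many that lost their FCER1G UMIs to thinning, and the shares of the split are drawn together. After thinning, GZMK, a granzyme of memory CD8 T cells, was found in 74.7% (66.9 to 81.4) of 150 cells with FCER1G and in 64.5% (61.8 to 67.1) of 1301 without it. These intervals overlapped, as did those of CD3D (60.0% and 51.3%), CD8B (32.0% and 34.6%), NKG7 (24.0% and 22.6%) and CD247 (27.3% and 24.3%). KLRB1, which encodes CD161, was found in 10.7% (6.22 to 16.7) and 6.07% (4.84 to 7.51). The direction for GZMK differed between libraries. In naïve blood it was found in 77.5% of 40 cells with FCER1G and 62.9% of 620 without it. In sham blood it was found in 60.0% of 40 and 68.8% of 573. The intervals overlapped in both. In CD8 T-like cells as a whole, the ITAM adaptor CD247 stood at 438, 426, 440 and 253 CPM and its kinase ZAP70 at 147, 114, 126 and 135 CPM, whereas SYK, the kinase used by FCER1G in myeloid cells, was at 3.70, 0.471, 0.470 and 0 CPM.

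The part of the FCER1G molecules carried by T-like cells differed between libraries. Of all FCER1G UMIs in kept human cells, 10.2%, 9.24%, 38.2% and 5.55% lay in T-like cells, and for TYROBP the shares were 1.41%, 1.13%, 3.79% and 2.22%. For AIF1 they reached 35.5%, 41.7%, 78.6% and 5.63%. In SCI blood, then, AIF1 molecules came mostly from T-like cells. Over all T-like cells FCER1G was 1.60 higher (log2; 1.39 to 1.82) in SCI than in naïve blood and 1.54 higher (1.35 to 1.73) than in sham blood. For SCI over naïve blood, FCER1G was called higher and CD68 lower (19 and 29 UMIs) among 6 members tested, where 4.64% of genes were called, 2.35% higher and 2.29% lower. For SCI over sham blood FCER1G alone was called, where 3.93% were called and 2.19% higher, and for sham over naïve blood CST3 (20 and 41 UMIs) and CD68 (14 and 29 UMIs) were called lower, where 2.55% were called and 1.52% lower. The T-like level is a sum that also moves with the CD8 T-like cells, which were 660 of 4224, 613 of 3694 and 1451 of 4625 T-like cells. FCER1G was also the 1 member called higher in Treg-like cells, of 4 and 3 tested, for SCI over naïve and SCI over sham blood. There 1.07% and 1.40% of genes were called higher. In CD4 T-like cells it was the 1 called higher of 4 tested in each, where 1.59% and 1.31% were. Among cells with at least 4 CD3 or TRAC UMIs and no FCER1A or MS4A2 UMI, SCI blood kept 28 of 28 FCER1G UMIs in Treg-like and 9 of 27 in CD4 T-like cells.

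In the cord, T-like cells with adaptor molecules were few. FCER1G stood at 114 CPM (47 UMIs) and TYROBP at 46.0 CPM (19 UMIs) over 67 T-like cells, against 58.7 and 1.75 CPM in SCI blood, and 3 of the 6 members tested were called higher (TYROBP, CST3 and CD68) where 18.8% of genes were called and 11.7% were called higher. A single barcode held 8 of the 10 CST3 UMIs and all 4 CD68 UMIs. Only 8 cord barcodes held either adaptor, and 3 of them held 33 of the 47 FCER1G and 17 of the 19 TYROBP UMIs. Of these 3, the 2 in the CD4 T-like cluster had 15 and 4 UMIs of TRDC, the constant gene of the delta T cell receptor, beside 3 and 2 CD3 or TRAC UMIs. The other, in the Treg-like cluster and the one with the CST3 and CD68 UMIs, had 8 UMIs of FCER1A, 5 of MS4A2 and 12 of CLC beside 26 CD3 or TRAC UMIs. Among the 63 cord T-like cells with at least 4 CD3 or TRAC UMIs and no FCER1A or MS4A2 UMI, a limit set after seeing these barcodes, 14 FCER1G, 2 TYROBP, 2 CST3 and 0 CD68 UMIs remained, and the 14 lay in 3 CD8 T-like cells. Over the blood libraries the same limit left 197, 270 and 860 FCER1G UMIs and 17, 18 and 10 TYROBP UMIs.

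Levels within the basophil or mast-like class differed between cord and blood. TYROBP was 1.62 higher (log2; 1.35 to 1.88) in SCI cord than in SCI blood, AIF1 2.99 (1.66 to 4.57), LST1 1.14 (0.63 to 1.64) and CD68 1.13 (0.62 to 1.61). These 4 of the 7 members tested were called, all higher, where 18.3% of 4941 genes were called and 6.07% were called higher. The median of the 7 members was 1.13 and that of all genes tested −0.10. Genes with a ratio at least as high as that of TYROBP were 1.44% of those tested.

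The TYROBP difference was spread over the cells. The median cord cell had 1875 CPM of TYROBP (lowest 368, highest 2802), and the median SCI blood cell 468 CPM (lowest 0, highest 2254). FCER1G differed by 0.54 (0.37 to 0.71), and its single cells overlapped widely, with medians of 2742 and 2077 CPM. SPI1 differed by 0.89 (0.30 to 1.45), and CST3 by −0.33 (−0.73 to 0.04). The AIF1 ratio rested on 15 UMIs in 5 of 15 cord cells and 7 UMIs in 7 of 134 SCI blood cells, and CSF1R and CLEC10A had 0 UMIs in both. Barcodes with 2 or more CD3 or TRAC UMIs were 11 of 134 in SCI blood and 1 of 15 in cord. Without barcodes that held 2 or more UMIs of T or B cell markers, 2 members were called, TYROBP at 1.42 and LST1 at 1.06, and CD68 stood at 0.80. AIF1, at 2.60, then had too few UMIs to be tested. The shares of genes called given above are for the whole class, and none is given for the barcodes left here.

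**Figure D5:**
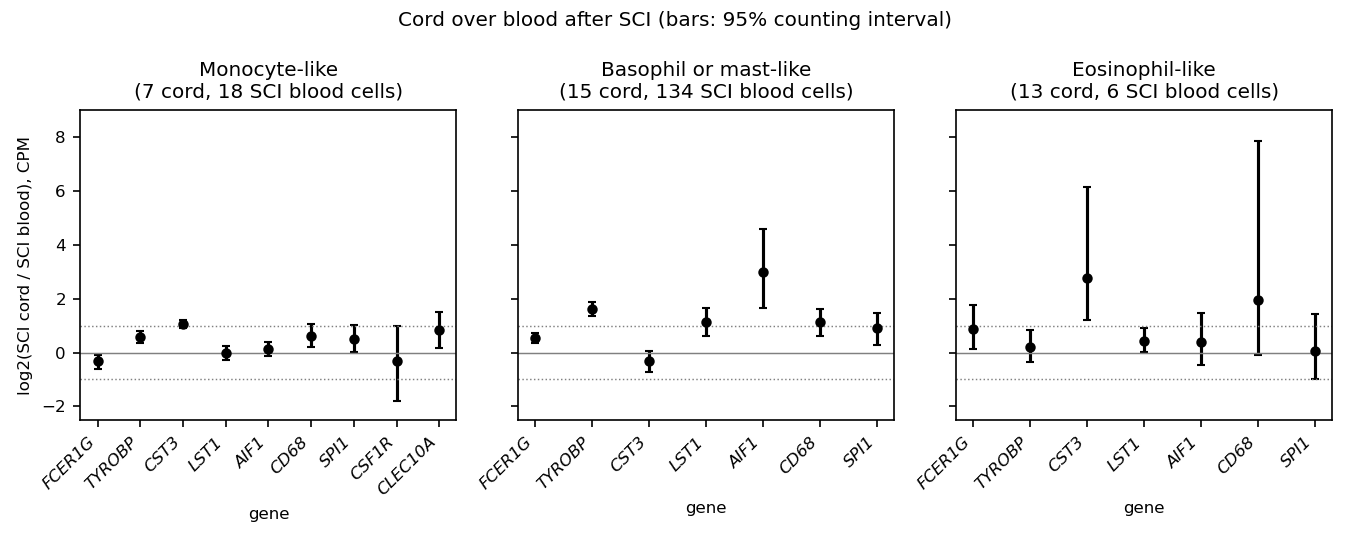
Log2 ratio of CPM in SCI cord over SCI blood (y axis) for each member tested, in monocyte-, basophil or mast- and eosinophil-like cells; bars are 95% counting intervals, 0 means equal levels and dotted lines mark −1 and 1. TYROBP stands at 1.62 in basophil or mast-like and at 0.57 in monocyte-like cells, and CST3 at 1.05 in monocyte-like cells.

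In blood, the basophil or mast-like class changed little between conditions. Of 7, 6 and 6 members tested, 0 were called for sham over naïve, SCI over naïve and SCI over sham, where 6.22%, 6.04% and 5.65% of genes were called. LST1 was 0.70 lower (log2 ratio −0.70; −1.15 to −0.26) in SCI than in naïve blood, at 188 against 306 CPM, and −0.77 (−1.15 to −0.40) relative to 320 CPM in sham blood. FCER1G was 0.45 higher (0.30 to 0.61) in sham than in naïve blood.

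CST3 was the most abundant member in monocyte-like cells and the only one called between cord and blood. It stood at 3227, 3011 and 3241 CPM in blood and 6734 CPM (6276 to 7217) in cord, a log2 ratio of 1.05 (0.90 to 1.21) over SCI blood. That was 1 of 9 members called, where 18.1% of 2630 genes were called and 7.34% were called higher, so the count was near the background. The 7 cord cells ranged from 2249 to 17246 CPM around a median of 3553 CPM, and the 18 SCI blood cells from 90.7 to 8824 CPM around 2952 CPM, so that the groups overlapped. Without the 1 cord barcode that held CLEC10A, 458 of the 801 CST3 UMIs were left. CST3 then stood at 4624 CPM (4210 to 5067), with a ratio of 0.51 (0.33 to 0.69), and was not called.

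TYROBP was 0.57 higher (0.34 to 0.80) in cord than in SCI blood monocyte-like cells, CD68 0.62 (0.20 to 1.04) and SPI1 0.52 (0.01 to 1.03). FCER1G differed by −0.33 (−0.60 to −0.08), and LST1, AIF1 and CSF1R by −0.02, 0.12 and −0.31 with intervals that held 0. LYZ stood beside them at 42710 CPM in cord and 9533 CPM in SCI blood. T cell molecules were unevenly spread over these barcodes: 17 of 141, 24 of 96 and 5 of 18 in blood, but 0 of 7 in cord, had 2 or more CD3 or TRAC UMIs. Without barcodes that held 2 or more UMIs of T or B cell markers, which left 117, 68, 11 and 7 cells, CST3 differed by 0.97, TYROBP by 0.36, CD68 by 0.22, LST1 by −0.33 and FCER1G by −0.58 between cord and SCI blood. The member called was then CLEC10A (2.29), from 46 cord UMIs that all lay in 1 of the 7 cells and 7 UMIs in SCI blood. The share of all genes called is not given for these cells.

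Between the blood libraries the monocyte-like class was steady for most members. Called members were 0 of 9 for sham over naïve (5.67% of genes called), 1 of 9 for SCI over naïve (CLEC10A, higher; 11.1% called, 5.06% higher) and 1 of 9 for SCI over sham (CSF1R, higher; 12.3% called, 4.62% higher). CSF1R had 46, 39 and 15 UMIs, and its ratio of 1.10 for SCI over sham had an interval from 0.10 to 1.96. It was found in 24.1%, 25% and 50% of cells at full depth, with medians of 6054, 9871.5 and 10328.5 UMIs. Without barcodes that held 2 or more UMIs of T or B cell markers, CSF1R was found in 6 of 117, 1 of 68 and 0 of 11 thinned cells. The last allows a share of up to 28.5%. At full depth the same cells held 41, 12 and 11 CSF1R UMIs (65.9, 23.0 and 117 CPM), so SCI blood stayed highest by CPM. FCER1G differed by 0.40 (0.23 to 0.56) for SCI over sham and by −0.23 (−0.33 to −0.12) for sham over naïve. Without barcodes with T or B cell markers these were 0.39 and −0.02. The called members were then 1, 0 and 2 for sham over naïve, SCI over naïve and SCI over sham. CSF1R was lower in sham than in naïve blood. In SCI over sham blood CSF1R was higher and CLEC10A lower, the latter at 74.7 against 167 CPM. The share of all genes called is not given for these cells, and the counts were not read further.

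CST3 was low outside monocyte- and dendritic-like cells, with intermediate levels in the granulocytes. It stood at 879, 677, 677 and 536 CPM in basophil or mast-like cells, at 0.617 CPM or less in CD8 T-like cells (1, 1, 1 and 0 UMIs) and at 34.5, 37.2 and 15.4 CPM in B-like cells of blood. In eosinophil-like cells CST3 had 0, 0 and 2 UMIs in blood and 78 UMIs (616 CPM) in cord, present in 13 of 13 cord cells and 2 of 6 SCI blood cells, with a log2 ratio of 2.78 (1.20 to 6.17) from those 2 UMIs. CD68 went from 1 to 26 UMIs in the same comparison, a log2 ratio of 1.95 with an interval from −0.09 to 7.87. These were 2 of 7 members called, where 19.7% of 1504 genes were called and 11.6% were called higher.

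LST1 and AIF1 were shared by myeloid and T-like cells in different ways. In monocyte-like cells LST1 stood at 2311, 2283, 1940 and 1908 CPM and AIF1 at 1479, 1332, 1632 and 1774 CPM. In eosinophil-like cells LST1 was the highest member, at 2899, 1871 and 2549 CPM in sham blood, SCI blood and cord, with AIF1 at 380, 432 and 584 CPM. In basophil or mast-like cells AIF1 was nearly absent from blood, at 33.5, 21.7 and 14.0 CPM, whereas LST1 was at 306, 320 and 188 CPM.

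Among T-like cells AIF1 followed the clusters. It stood at 238, 300, 292 and 219 CPM in CD8 T-like cells, at 132, 219 and 153 CPM in naïve T-like cells of blood, at 137, 131 and 95.1 CPM in cytotoxic T-like cells of blood, and at 12, 20.1 and 15.6 CPM in CD4 T-like and 6.83, 6.09 and 8.04 CPM in Treg-like cells of blood. AIF1 molecules were found in 37.9%, 56.4% and 52.8% of CD8 T-like cells of blood, and in 11.97%, 17.3% and 16.5% after thinning. LST1 was more even, at 68.5, 46.1 and 72.8 CPM in CD8 T-like, 34.8, 33.6 and 36.6 CPM in Treg-like and 23.5, 27.7 and 35.1 CPM in CD4 T-like cells of blood. In CD8 T-like cells AIF1 was 0.34 higher (0.15 to 0.52) in sham than in naïve blood and LST1 0.65 higher (0.33 to 1.00) in SCI than in sham blood.

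SPI1, the transcription factor, kept to myeloid and B-like cells. It stood at 391, 349, 388 and 555 CPM in monocyte-like, 175, 147, 162 and 299 CPM in basophil or mast-like and 333, 288 and 316 CPM in eosinophil-like cells of sham blood, SCI blood and cord. B-like cells of blood had 125, 137 and 116 CPM. T-like cells had 6, 6, 5 and 0 SPI1 UMIs in all. CSF1R was confined further: 47 of 47, 39 of 40, 15 of 15 and 19 of 20 UMIs lay in myeloid cells, at 58.2, 40.8, 85.6 and 67.3 CPM in monocyte-like cells. CD68 stood at 661, 566, 536 and 824 CPM in monocyte-like, 216, 195, 194 and 421 CPM in basophil or mast-like and 3.09 CPM or less in CD8 T-like cells.

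CLEC10A came from few cells in every library. All 71, 120 of 122 and all 38 blood UMIs lay in monocyte-like cells, in 23 of 141, 32 of 96 and 6 of 18 of them. In SCI over naïve blood its ratio was 1.28 (0.66 to 1.86), from 38 and 71 UMIs, and it fell to −0.46 once barcodes with 2 or more T or B marker UMIs were left out. In cord, 197 of 199 CLEC10A UMIs lay in 4 barcodes: 46 in 1 of the 7 monocyte-like cells, 82 in a barcode of the B-like cluster with 161 UMIs of dendritic markers and 26 CD3 or TRAC UMIs, and 19 and 50 in the 2 dendritic-gated barcodes. The B-like cluster of cord held 8 barcodes in all, so that member levels there (CST3 at 1888 CPM and TYROBP at 785 CPM) were not read as B cell levels.

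The 5 dendritic-gated barcodes were of different kinds. Both sham barcodes carried CLEC9A (15 and 28 UMIs) and XCR1 (17 and 9 UMIs), markers of type 1 conventional dendritic cells, and had CST3 at 38734 and 22916 CPM, with 2 and 4 UMIs of FCER1G, 11 and 0 of TYROBP and 0 of CLEC10A. Both cord barcodes carried CD1C (32 and 27 UMIs), a marker of type 2 conventional dendritic cells, with CST3 at 12427 and 16822 CPM, FCER1G at 570 and 1714 CPM, TYROBP at 912 and 1355 CPM and CLEC10A at 542 and 1993 CPM. The naïve barcode had 12 UMIs of CD1C and 17 of LAMP3, a gene of mature dendritic cells, with CST3 at 2613 CPM and no CLEC10A. With so few barcodes, blood and cord could not be compared for this type.

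Over all human cells together, the 9 members were called higher in SCI cord than in SCI blood (9 of 9, where 13.8% of genes were called higher), and 4 and 6 of 9 were called lower in SCI than in naïve and sham blood (4.38% and 3.40% called lower). These sums moved with cell numbers: monocyte-, basophil- and eosinophil-like and dendritic-gated cells were 31.4% of kept cord cells and 3.79%, 4.76% and 2.66% of naïve, sham and SCI blood cells. Cord cells were enriched by an additional magnetic step before sorting, and the fraction of myeloid cells in a sum and their RNA content cannot be told apart in it.

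Genes whose levels ran most like those of FCER1G over the 29 class and library groups with at least 20 cells were APOBR, CD244, IFITM3, TGFBR1 and TM6SF1 (Pearson r of log2(CPM + 1) from 0.86 to 0.91, among 7006 genes). For TYROBP they were FES, METRNL, HSPA6, CD63 and LILRA2 (0.93 to 0.95). The adaptors had r = 0.80 with each other, CST3 and TYROBP 0.91, CST3 and AIF1 0.15, and AIF1 and SPI1 −0.02. The groups share libraries, depth and cells of 1 lineage, and the values are a description.

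Gene lists around the members were followed in T-like cells of SCI cord over SCI blood, where 18.8% of 12099 genes were called in either direction and the median of all genes was 0.04. Of 14 receptors that pair with TYROBP, 1 had enough counts, PILRB, at a log2 ratio of 0.30. Of 17 that pair with FCER1G, 3 were tested and 1 was called higher, CLEC4D (3.40, from 5 cord UMIs). NCR3, which encodes the activating NK receptor NKp30 and pairs with CD247 and FCER1G, was the highest of them, at 64.4 CPM in SCI blood, and differed by −0.18 (−0.87 to 0.38). Of 25 ITAM adaptors and kinases, 22 were tested, 4 were called higher and 1 lower, with a median of 0.08. LYN, a SRC family kinase of myeloid and B cells, stood at 3.53 from 8 cord UMIs and LAT2 at 2.05, FGR had 0 cord UMIs, and the most abundant, CD3D, CD3G and LCK, differed by −0.07, −0.28 and −0.14.

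Of 33 innate-like T cell genes, 21 were tested, 4 were called higher and 1 lower, with a median of 0.37. The chemokine genes XCL1 and XCL2 stood at 7.89 (6.94 to 9.16) and 6.74 (6.30 to 7.23), from 60 and 156 cord UMIs, and CX3CR1, the fractalkine receptor, at −1.94 (−5.32 to −0.40) from 2 cord UMIs. GNLY (0.68), KLRB1 (0.69) and NKG7 (0.11) were the most abundant and were not called. Of 11 genes of the myeloid growth factor axis, 5 were tested and 4 were called higher, with a median of 2.62. CSF2, which encodes GM-CSF, went from 1.30 to 111 CPM (6.40; 5.64 to 7.26), CSF1 from 0.713 to 43.6 CPM (5.91; 4.77 to 7.16) and IL3RA stood at 2.62 from 5 cord UMIs, whereas FLT3LG differed by 0.04 and CSF2RB stood at 1.95 from 4 cord UMIs. The host transgene also carries human CSF2, and whether any of the CSF2 UMIs came from it was not tested.

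Of 19 myeloid transcription factors, 12 were tested and 5 were called higher, with a median of 0.79. CEBPA stood at 3.64 (3.00 to 4.21), CEBPD at 1.74 and GFI1 at 1.24 (−1.29 to 2.65) from 3 cord UMIs, and the most abundant, ID2, FLI1 and CEBPB, differed by 0.41, −0.50 and 0.55. Of 18 cathepsins and cystatins, 15 were tested, 1 was called higher and 1 lower, with a median of 0.30. CTSL stood at 2.94 (2.52 to 3.32), CTSF had 0 cord UMIs, CTSC, the activator of granzymes, was at 1.00, just under the limit, and CSTB and CTSS differed by −0.07 and 0.08. In myeloid cells, the proteases that cystatin C inhibits were called higher in cord for 3 of 9 tested in monocyte-like and 4 of 10 in basophil or mast-like cells, where 7.34% and 6.07% of all genes tested were called higher, and none was called lower. Of 15 scavenger and lectin receptors, 5 were tested in T-like cells, with 1 called higher (CLEC7A, 4.54 from 11 cord UMIs) and 1 lower (LAMP3, 0 cord UMIs), and CD63, LAMP1 and LAMP2 differed by 0.60, 0.14 and 0.01. The CD3-poor and FCER1A-bearing barcodes described above are among the 67 cord cells behind these ratios.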

How the data were processed

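Droplet 3′ single-cell RNA sequencing of sorted human CD45+ cells gave 4 libraries, sequenced in 1 run. Per the labels and the study's methods, the authors used CellRanger 3.1.0 with human (GRCh38) and mouse (mm10) sequences in a joint reference, and deposited raw UMI counts per gene and barcode, with totals of 34161760, 36007208, 36487994 and 4206461 UMIs in naïve blood, sham blood, SCI blood and SCI cord. From these counts, barcodes with over 50% human UMIs (6713, 4972, 6283 and 138) were kept unless they lay more than 3 median absolute deviations below their library's median in log UMIs or log genes, or above it in mitochondrial or ribosomal share. Scrublet scores, ranked to 0.8% per 1000 barcodes because its own threshold marked 0 to 192 barcodes, removed marked barcodes with over 3000 genes (63, 75, 91 and 0). Clustering (scanpy 1.11.5; 2000 variable genes centred within library, 30 components, 15 neighbours, Leiden resolution 0.8) left out the members. Levels are CPM of class sums. Log2 ratios add 0.5 counts and have conditional binomial intervals, CPM exact Poisson and shares Clopper-Pearson intervals, and a count of 0 allows up to 3 counts. Intervals came from scipy 1.17.1 under Python 3.11.15, with edgeR 4.0.16 under R 4.3.3 for normalisation factors only, and the ratios and the thinning were tested on simulated data.

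The members, the gene lists and the rule for named genes were chosen with earlier results of these data known. That rule names all 9 members, the 3 list genes with the largest ratio and the 3 most abundant in T-like cells, and the 5 genes most like each adaptor. The NK and dendritic gates and the per-barcode limits were set after the data were seen, and genes of the comparison of FCER1G-bearing cells and myeloid marker genes were picked for description after their values were seen. No human reference sequence was used here.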

Additional observations from a re-analysis of the deposited data

Results flagged for a closer look

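Mouse reads were counted in the same barcodes and were used above only for the share of human molecules. Mouse UMIs of 8 orthologues of the members appeared in human T-like cells of at least 1 library at levels over those of naïve blood, the control library, with counting intervals that did not meet. These levels are per cell and not scaled for depth. Mouse barcodes also held the fewest UMIs of these orthologues in naïve blood. Tyrobp had 456, 25086, 10775 and 11074 UMIs there (naïve blood, sham blood, SCI blood and SCI cord), and Cst3 had 350, 15458, 6254 and 29616. Whether the levels follow the host RNA of each library was not tested. Mouse Cst3 stood at 125 UMIs per 1000 human T-like cells (sham blood), 75.5 (SCI blood) and 493 (SCI cord), against 15.6 in naïve blood. For mouse Tyrobp the values were 312 (sham blood), 169 (SCI blood) and 134 (SCI cord), against 13.02 in naïve blood. Mouse Fcer1g stood at 132, 86.7 and 149 in the same order, against 9.23. In sham and SCI blood mouse Lst1 stood at 52.2 and 21.6 (2.37 in naïve blood), Spi1 at 48.5 and 29.2 (3.08) and Csf1r at 12.7 and 4.11 (0.947). Mouse Cd68 stood at 4.87 in sham blood and 74.6 in cord (1.18 in naïve blood), and Aif1 at 44.8 in cord, from 3 UMIs (0 in naïve blood). Mouse Fcer1g made up 41.5%, 29.8%, 33.9% and 52.6% of the mouse pair in human T-like cells of naïve blood, sham blood, SCI blood and SCI cord, and 34.8%, 33.2%, 32.8% and 39.5% in mouse barcodes of the same libraries. Human FCER1G made up 89.96%, 92.2%, 97.1% and 71.2% of the human pair in T-like cells, in the same order. In cord its interval (58.7 to 81.7) overlapped that of the mouse share (28.9 to 75.6). In CD8 T-like cells human FCER1G made up 98.8% to 100% of the human pair. Mouse Fcer1g made up 23.1%, 29.4% and 36.8% of the mouse pair in CD8 T-like cells of blood. In cord these cells held 1 mouse UMI of the pair, from Fcer1g. Human UMIs of FCER1G in mouse barcodes with at most 10% human UMIs were 3, 7, 4 and 3, over 1396, 1955, 1214 and 92 barcodes.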

How the results depend on the processing

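No paired analysis was possible because each group is 1 library, and for the same reason no library could be left out. Of 2218 alternative log2 ratios, 1969 stayed within the counting interval of the reported value, 235 moved out of it and 14 reversed a called value. For FCER1G in CD8 T-like cells, alternatives gave 0.74 to 1.11 for SCI over naïve blood and 0.49 to 1.06 for SCI over sham blood, with the mean of unscaled UMIs per cell giving 1.11 and 0.49 and a clustering resolution of 1.5 giving 1.06 for the latter. Without thinning, the shares of these cells with FCER1G were 16.7%, 22.02% and 28.5%. Members called between cord and SCI blood were 5 (unscaled UMIs per cell) or 0 (thinned cells) in monocyte-like cells, and 2 in basophil or mast-like cells without barcodes with 2 or more T or B marker UMIs, an alternative chosen after seeing the data. With no count filter, 48.0%, 30.5% and 16.5% of genes were called (monocyte-like and basophil or mast-like cord over SCI blood, and CD8 T-like SCI over naïve blood), and with a 1.5-fold limit 39.3%, 40.6% and 10.9%. Of the 14 reversals, 12 were in cord over SCI blood and the other 2 in SCI over naïve blood; a fitted ratio is no bound where cord has 0 UMIs. AIF1 in Treg-like cord cells went from −1.01 to 1.18 (no filter on outlying barcodes), 0.13 (unscaled) and 2.34 (thinned), and FCER1G in cytotoxic T-like cord cells from −1.11 to 3.16 (no centring within library) and 0.88 (thinned). In CD4 T-like cord cells AIF1 went from 1.60 to −0.025 (all marked doublets removed) and −0.24 (no centring), and LST1 from 2.13 to −0.26 (no centring) and −0.044 (only cells with 4 or more CD3 or TRAC UMIs and no FCER1A or MS4A2, added after seeing the data). FCER1G in Treg-like cord cells went from 3.47 to −0.74 (no centring) and −1.33 (the same CD3 limit), CD68 in T-like cord cells from 3.11 to −0.026 (no centring), FCER1G in CD4 T-like cells of SCI over naïve blood from 1.08 to −0.20 (the CD3 limit) and CLEC10A in monocyte-like cells of SCI over naïve blood from 1.28 to −0.46 (without T or B marker barcodes). The cause was not tested.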
